A study of Saccharomyces cerevisiae with 16 samples.

Results

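Among the enzymes of budding yeast, Saccharomyces cerevisiae, 8 reductases grouped as NADPH-dependent are described by their transcript response to benomyl, a drug that depolymerises microtubules. They are OYE2, OYE3, GRE2, YML131W, YCR102C, YLR460C, YNL134C and ZTA1, 8 genes among 6321 features on the arrays, each read by 1 probe. They were picked by gene name as reductases whose transcripts were high with benomyl in the wild type and stayed low without the transcription factor Yap1. Their values in the YAP1 deletion and in the wild type therefore made the choice. These values are given as a description without a test, and a test is given only for the PDR1 deletion.

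The series holds 16 arrays with 2 channels, and each array compares RNA of a strain exposed to benomyl with RNA of the same strain without it. The strain deleted for YAP1, DeltaYAP1, and the strain deleted for PDR1, DeltaPDR1, were each followed at 30 s and at 2, 4, 10 and 20 min, and the wild type, WT, at these times and at 40 min. Pdr1 is a transcription factor that activates genes of drug efflux pumps. There was 1 array per strain and time, and the labels give neither the dose of the drug nor the strain background. Values are log ratios, read as log2 of drug over no drug from the order of the channels. The base is not stated, and if it were natural every fold below would be larger with the same signs. The dyes are not stated either, so the direction of the ratios is an assumption, and the opposite one would turn every sign. Each array was centred on its own mean by the authors, so every value is relative to the average transcript of that array. A ratio within a deletion strain sets 2 RNAs that lack the gene against each other, so the arrays do not check the deletions.

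Yap1 is a basic leucine zipper factor that gathers in the nucleus when the cell meets oxidants or electrophilic drugs, and it activates genes that restore the redox state and detoxify reactive molecules. The old yellow enzymes OYE2 and OYE3 carry a flavin and use NADPH to reduce the carbon double bond of unsaturated aldehydes and ketones. GRE2 reduces methylglyoxal and other carbonyls and belongs to the short-chain reductases, so it is neither an old yellow enzyme nor a medium-chain reductase. YML131W, YCR102C, YLR460C, YNL134C and ZTA1 belong to the medium-chain reductase family.

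Coverage was uneven for 2 members. OYE2, OYE3, GRE2, YML131W, YCR102C and YLR460C had a value on all 16 arrays. YNL134C had none on the 8 DeltaYAP1 and WT arrays from 30 s to 10 min, a gap it shared with 512 of 6338 probes. ZTA1 had none on the 5 DeltaPDR1 arrays, as did 590 probes. Probes with a value tell the arrays apart in another way too: 34 probes had a value on the DeltaYAP1 array at 20 min and the WT arrays at 20 and 40 min and on none of the other 13. A step between 10 and 20 min in DeltaYAP1 or WT thus joins arrays whose missing probes differ, and the part of this in the steps was not tested. Between 3450 and 6128 probes had a value on an array, and the number of arrays limits the precision.

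**Figure D1:**
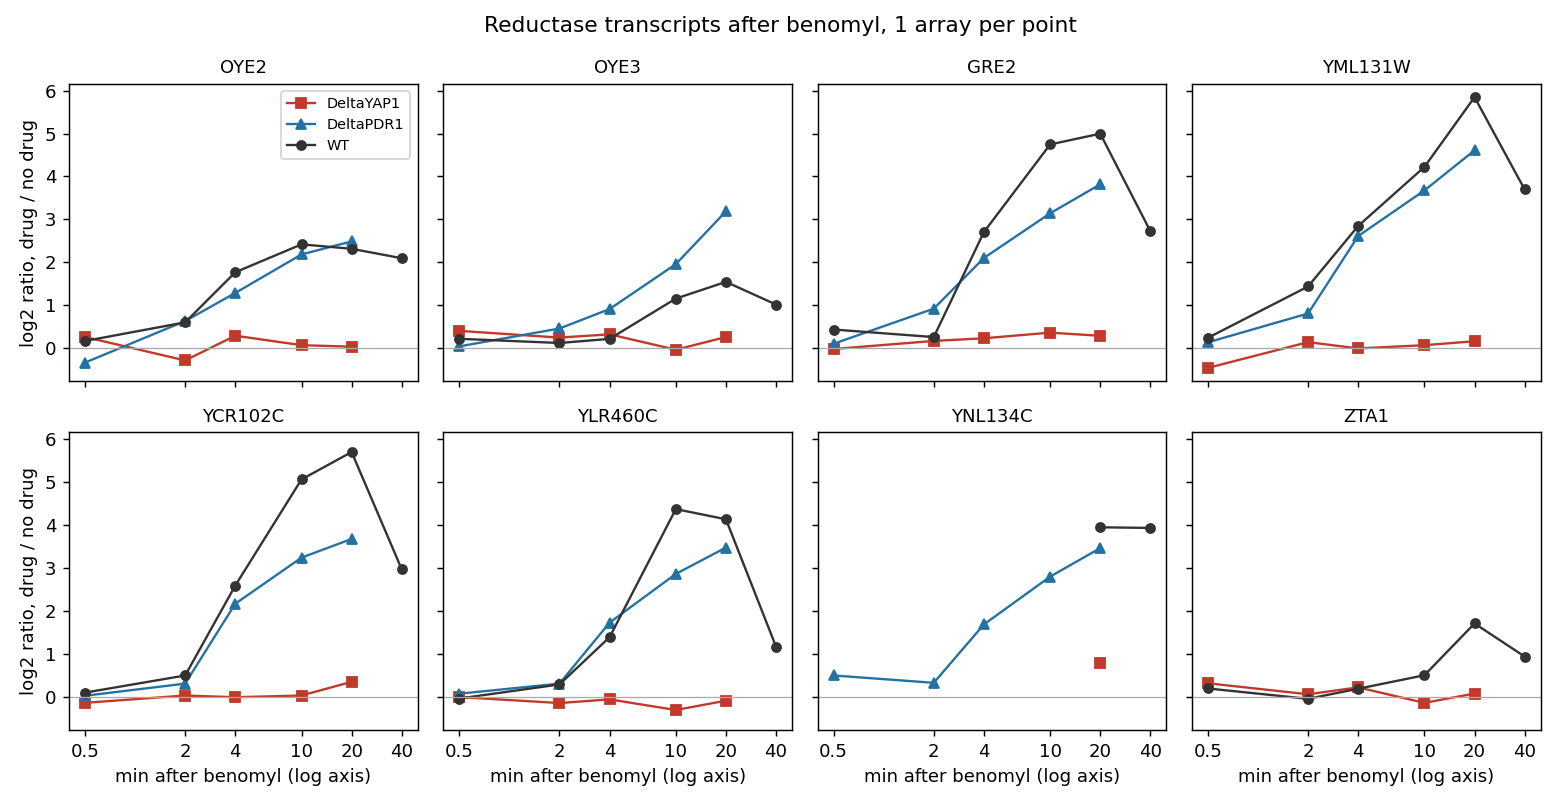
Log2 ratio of drug over no drug (y) against minutes after benomyl on a log axis (x) for the 8 reductases, with 1 array per point and a line per strain (DeltaYAP1 squares, DeltaPDR1 triangles, WT circles). The DeltaYAP1 values lie between -0.46 and 0.80, while in WT the 8 members lie between 1.54 and 5.85 at 20 min; YNL134C and ZTA1 have gaps where the file gives no value.

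Without Yap1 the members other than YNL134C stayed near the average of the array. The 36 member values on the DeltaYAP1 arrays ran from -0.46 to 0.80 with a median of 0.07. On the 30 s arrays of all 3 strains the 21 member values ran from -0.46 to 0.50, with a standard deviation of 0.24. The 7 DeltaYAP1 values at 30 s belong to both ranges. The highest DeltaYAP1 value, 0.80, was the only one of YNL134C in that strain, taken at 20 min. On that array YNL134C ranked 57 from the top among 6112 features. Without this value the DeltaYAP1 values ended at 0.40. At 20 min 0 of 8 members were at least 2-fold up in DeltaYAP1, where 0.491% of 6112 features were.

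In DeltaPDR1 the members that could be measured were all high by 10 min. At 4 min 6 of 7 were at least 2-fold up on the single array (0.464% of all features), at 10 min 7 of 7 (0.982%) and at 20 min 7 of 7 (1.35%). In WT 5 of 7 were 2-fold up at 4 min (0.469% of all features), 6 of 7 at 10 min (1.43%), 8 of 8 at 20 min (2.72%) and 7 of 8 at 40 min (4.09%). Nothing is read from the WT and DeltaYAP1 counts, since those arrays served to choose the genes.

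YML131W, a reductase related to the mammalian enzymes that reduce leukotrienes and prostaglandins, had the highest value of any feature in WT at 20 min. In DeltaYAP1 it stood at -0.46, 0.14, -0.01, 0.07 and 0.16 at 30 s, 2, 4, 10 and 20 min. In DeltaPDR1 it stood at 0.13, 0.81, 2.61, 3.67 and 4.61 at the same times, and in WT at 0.24, 1.43, 2.85, 4.22 and 5.85, then 3.69 at 40 min. It was the only member above 1 in WT at 2 min. From 2 min on, every DeltaPDR1 value lay above every DeltaYAP1 value and below the WT value of its time. Its mean at 10 and 20 min was 0.11 ± 0.29 in DeltaYAP1, 4.14 ± 0.29 in DeltaPDR1 and 5.03 ± 0.29 in WT, where ± is the moderated standard error (SE) of the fit described below (2 arrays per mean).

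YCR102C is a quinone oxidoreductase-like protein of unknown substrate. It stood at -0.14, 0.03, -0.01, 0.03 and 0.35 in DeltaYAP1 from 30 s to 20 min, at 0.02, 0.31, 2.17, 3.24 and 3.68 in DeltaPDR1, and at 0.10, 0.50, 2.59, 5.07 and 5.71 in WT, with 2.97 at 40 min. DeltaPDR1 lay under WT at each of the 5 shared times, and its distance was widest at 20 min. The mean at 10 and 20 min was 0.19 ± 0.27 in DeltaYAP1, 3.46 ± 0.27 in DeltaPDR1 and 5.39 ± 0.27 in WT (SE), so YCR102C had the highest WT mean of the members with both values, 41.8-fold. In the order of WT means YCR102C was ahead of YML131W by 0.35, YML131W of GRE2 by 0.16 and GRE2 of YLR460C by 0.61. The SE, 0.29 for GRE2 and 0.20 for YLR460C among them, do not clearly resolve these steps. YLR460C was ahead of OYE2 by 1.89 and OYE2 of OYE3 by 1.02. A larger log ratio of 1 gene than of another says nothing of their transcript levels.

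YLR460C, a relative of YCR102C in the quinone oxidoreductase family, stood at -0.01, -0.15, -0.06, -0.31 and -0.09 in DeltaYAP1 from 30 s to 20 min. It stood at 0.07, 0.31, 1.73, 2.86 and 3.48 in DeltaPDR1, and at -0.04, 0.29, 1.39, 4.38 and 4.14 in WT, with 1.17 at 40 min. It was the only member at or below 0 on all 5 DeltaYAP1 arrays. The labels do not give the length or sequence of the probes, and RNA of 1 of these relatives that sticks to the other's probe was not tested.

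GRE2 stood at -0.02, 0.17, 0.23, 0.36 and 0.28 in DeltaYAP1 from 30 s to 20 min, at 0.10, 0.92, 2.10, 3.14 and 3.82 in DeltaPDR1, and at 0.43, 0.26, 2.70, 4.75 and 4.996 in WT, with 2.72 at 40 min. At 2 min the DeltaPDR1 value was above the WT value by 0.66, and from 4 min on it was below it. Its mean at 10 and 20 min was 0.32 ± 0.29 in DeltaYAP1, 3.48 ± 0.29 in DeltaPDR1 and 4.87 ± 0.29 in WT (SE).

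The pair of old yellow enzymes differed in size and in timing. OYE2 stood at 0.26, -0.29, 0.29, 0.07 and 0.03 in DeltaYAP1 from 30 s to 20 min, at -0.34, 0.63, 1.28, 2.18 and 2.49 in DeltaPDR1, and at 0.16, 0.60, 1.77, 2.42 and 2.31 in WT, with 2.09 at 40 min. From 10 min on its WT values stayed within a narrow range, and DeltaPDR1 was within 0.51 of WT at all 5 shared times, on both sides of it. OYE3 stood at 0.40, 0.24, 0.32, -0.04 and 0.26 in DeltaYAP1, at 0.04, 0.46, 0.91, 1.96 and 3.19 in DeltaPDR1, and at 0.21, 0.12, 0.21, 1.15 and 1.54 in WT, with 1.01 at 40 min. OYE3 lay higher in DeltaPDR1 than in WT at 2, 4, 10 and 20 min, and it was the only one of the 6 members measured in both strains at all times for which this was so.

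YNL134C, an aldehyde reductase known for the detoxification of furfural, stood at 0.80 in DeltaYAP1 at 20 min. In DeltaPDR1 it stood at 0.50, 0.33, 1.69, 2.80 and 3.47 from 30 s to 20 min, and in WT at 3.95 at 20 min and 3.94 at 40 min. Its WT onset cannot be dated from these arrays. ZTA1, the yeast counterpart of zeta-crystallin and a quinone reductase, stood at 0.32, 0.06, 0.22, -0.14 and 0.08 in DeltaYAP1 and at 0.19, -0.05, 0.19, 0.50 and 1.71 in WT, with 0.94 at 40 min. ZTA1 was the latest of the 7 members with a WT time course: it was under 1 at 10 min, when the other 6 were above 1.

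The choice of genes did not name the DeltaPDR1 values, and the test there asked whether benomyl raised these transcripts in a strain without Pdr1. The genes were chosen with earlier results of these data known, so the test is not shown to be independent of that choice. Genes picked as high with benomyl in WT can for that reason be high in DeltaPDR1 too. A rise of the members was therefore likely beforehand. At 10 and 20 min YML131W averaged 4.14 ± 0.29 (17.6-fold), GRE2 3.48 ± 0.29 (11.1-fold), YCR102C 3.46 ± 0.27 (11.02-fold), YLR460C 3.17 ± 0.20 (9.01-fold), OYE3 2.57 ± 0.15 (5.94-fold) and OYE2 2.33 ± 0.13 (5.04-fold) in DeltaPDR1 (SE, 2 arrays each, drug over no drug). All 6 members tested rose, and 2.08% of the 4324 features tested did so. The adjusted p lay between 3.71e-06 for OYE2 and 3.25e-05 for GRE2 (limma, two-sided, Benjamini-Hochberg adjustment over 4324 features). The median of the 6 was 3.32, against -0.02 over all features. YNL134C and ZTA1 lacked the values the test needed. The fit had a term for each strain in each phase (2 and 4 min, 10 and 20 min) and time as a block over the 12 arrays of the 3 strains, so the error is the spread left on all of them and not that of repeated cultures.

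Averaged over 2, 4, 10 and 20 min the same 6 members also rose in DeltaPDR1, and 2.80% of all features did. The means were 2.92 ± 0.37 for YML131W, 2.49 ± 0.38 for GRE2, 2.35 ± 0.41 for YCR102C, 2.09 ± 0.39 for YLR460C, 1.64 ± 0.17 for OYE2 and 1.63 ± 0.24 for OYE3 (SE, n = 4 arrays), with limma adjusted p from 0.00087 for OYE2 to 0.0103 for YLR460C. A response that grows with time widens the error of this mean. With the DeltaPDR1 arrays alone 3 of 7 members were called, while of all 4923 features tested 16 were called up and 21 down. OYE3 (adjusted p = 0.069), YCR102C and YLR460C (adjusted p = 0.0604 each, limma) were lost there. Without the DeltaPDR1 array at 10 min YCR102C (adjusted p = 0.0558) and YLR460C (adjusted p = 0.0584) were lost, and without the one at 20 min YLR460C (adjusted p = 0.0668, limma). Both genes were also lost without the time block and with robust shrinkage of the variances. With the DeltaPDR1 arrays alone YNL134C could be tested too: it averaged 3.13 ± 0.26 at 10 and 20 min (adjusted p = 0.000107, limma) and 2.07 ± 0.42 over 2 to 20 min (adjusted p = 0.0604).

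**Figure D2:**
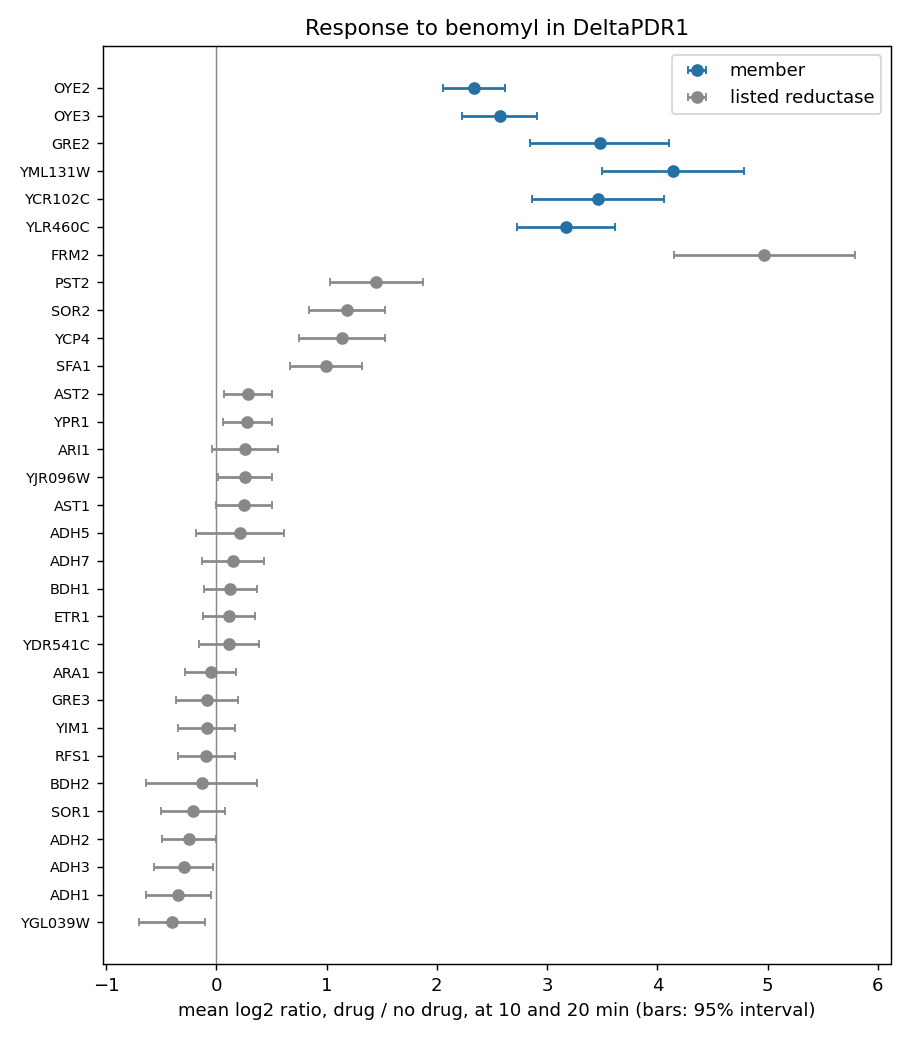
Mean log2 ratio of drug over no drug at 10 and 20 min in DeltaPDR1 (x) for the 6 members tested (blue) and 25 other reductases (grey, sorted by value), with bars for the 95% interval of the limma fit. The members lie between 2.33 and 4.14, and among the other reductases FRM2 at 4.97 lies above them.

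**Figure D3:**
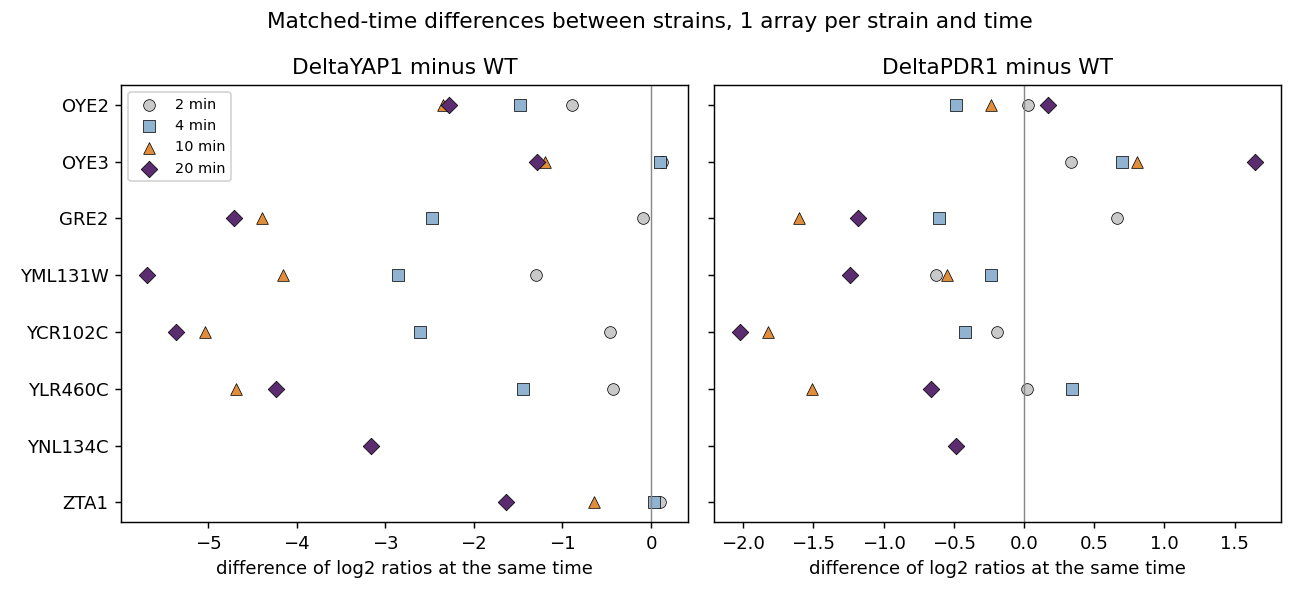
Difference of log2 ratios at the same time (x) for each member (y), DeltaYAP1 minus WT on the left and DeltaPDR1 minus WT on the right, with 1 symbol per time and 1 array per strain behind each value. At 10 and 20 min all differences on the left are negative, while on the right OYE3 is positive at all 4 times and YCR102C is negative at all 4.

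Set against WT at the same times, the members of DeltaPDR1 did not all lie on 1 side. The mean difference DeltaPDR1 minus WT at 10 and 20 min was -1.93 ± 0.38 for YCR102C, -1.39 ± 0.40 for GRE2, -1.09 ± 0.28 for YLR460C and -0.89 ± 0.41 for YML131W (SE, 2 arrays per strain). For OYE2 it was -0.03 ± 0.18 and for OYE3 1.22 ± 0.22. These differences carry no test, because the WT arrays served to choose genes that are high in WT, which by itself favours values below 0. The standard deviation over all probes was also smaller in DeltaPDR1 than in WT, 0.309 against 0.4 at 10 min and 0.412 against 0.535 at 20 min. Missing probes set DeltaPDR1 apart too: 353 had no value there and a value on the other 11 arrays. The part of either in these differences was not tested. For DeltaYAP1 minus WT the same means were -5.20 ± 0.38 for YCR102C, -4.92 ± 0.41 for YML131W, -4.55 ± 0.40 for GRE2, -4.46 ± 0.28 for YLR460C, -2.32 ± 0.18 for OYE2 and -1.24 ± 0.22 for OYE3, again as a description. Both sets of differences share the WT arrays. ZTA1 differed by -0.64 at 10 min and -1.63 at 20 min between DeltaYAP1 and WT, and YNL134C by -3.16 at 20 min.

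The step between 10 and 20 min could be read for 7 members in each strain, among them YNL134C but not ZTA1 in DeltaPDR1, and ZTA1 but not YNL134C in DeltaYAP1 and WT. In DeltaPDR1 the value at 20 min was above that at 10 min for 7 of 7 members, by 0.31 for OYE2 up to 1.23 for OYE3. In WT it was above for 5 of 7 members, with YML131W (1.63) and ZTA1 (1.21) furthest up, and below for OYE2 (-0.10) and YLR460C (-0.24), steps of about the size of the standard deviation of the members at 30 s, or smaller. The DeltaYAP1 steps ran from -0.07 to 0.32. Each step rests on 1 array per time and was not tested.

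At 40 min in WT all 8 members were lower than at 20 min, as were 112 of the 156 features that were at least 2-fold up at 20 min. The median step of those 156 features, 40 min minus 20 min, was -0.39. Those features were picked by their value at 20 min, and the members for high WT values. Such a choice can by itself favour lower values at 40 min, and its part in the steps was not tested. YLR460C (-2.97), YCR102C (-2.73), GRE2 (-2.27) and YML131W (-2.15) took the 2nd, 3rd, 6th and 8th largest downward steps of the 156. ZTA1 (-0.77) and OYE3 (-0.53) lay nearer to the median, and OYE2 (-0.22) and YNL134C (-0.02) were almost level. Thus YNL134C at 3.94 and YML131W at 3.69 were the highest members at 40 min, while YLR460C minus OYE2 was -0.93 at 40 min, against 1.83 at 20 min. No later array of the deletion strains exists among the samples used here, so this late phase is known for WT alone.

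**Figure D4:**
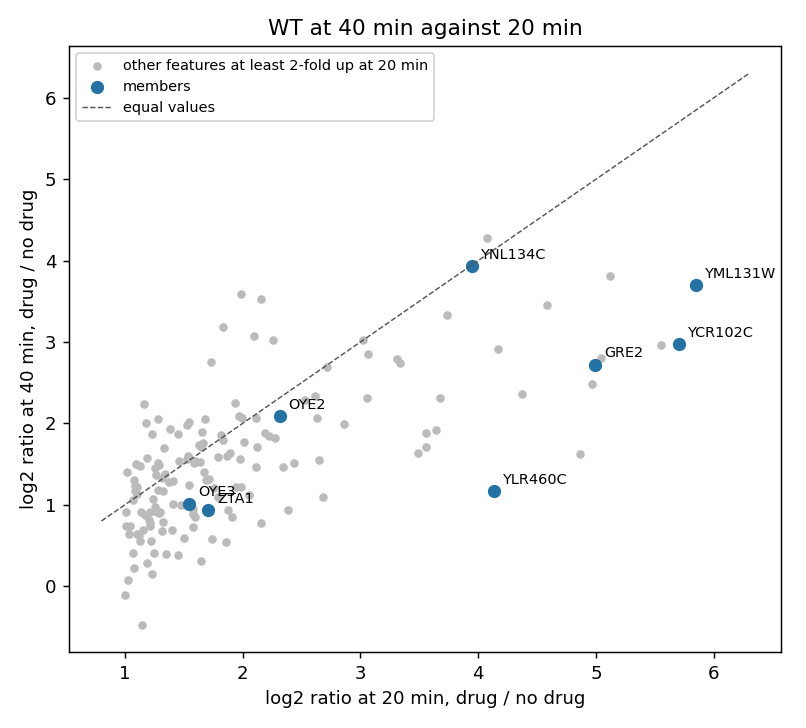
Log2 ratio of drug over no drug at 40 min (y) against that at 20 min (x) in WT, with 1 array per time, for the 8 members (blue, named) and the other features at least 2-fold up at 20 min (grey). The dashed line marks equal values; YNL134C and OYE2 lie close to it, and YLR460C, YCR102C, GRE2 and YML131W lie more than 2 log2 units under it.

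Over the 16 arrays the 6 complete members followed each other to different degrees. GRE2 and YCR102C were most alike (Pearson r = 0.992) and OYE3 and YCR102C least (r = 0.722), among 15 pairs. OYE3 was more like ZTA1 (r = 0.928 over the 11 arrays where ZTA1 had a value) than like OYE2 (r = 0.790 over 16). All arrays enter each of these values, and they share strain and time, so the values describe these arrays only. The 5 other features whose pattern was most like the mean of the 6, among 4234 compared, were FLR1 (r = 0.984), a drug exporter, FRM2 (r = 0.979), a nitroreductase-like protein, AAD14 (r = 0.977), an aryl-alcohol dehydrogenase, TRR1 (r = 0.971), the cytosolic thioredoxin reductase, and YGL114W (r = 0.962).

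Other reductases were taken by enzyme family for comparison, with earlier results of these data known. Of 31 listed genes 30 had a probe and 25 could be tested. At 10 and 20 min 7 of the 25 rose in WT and 0 fell, while 4.49% of all features rose and 4.58% fell (limma, adjusted over 4324 features). In DeltaPDR1 5 of 25 rose and 0 fell, while 2.08% of all features rose and 1.62% fell. An unadjusted p under 0.05, in either direction, was reached by 12 of the 25 in DeltaPDR1 (20% of all features) and by 11 in WT (25.6%). The difference DeltaYAP1 minus WT was negative and past the threshold for 4 of 25, against 1.27% of all features, and positive and past it for 0 of 25, against 0.208%; 6 of the 25 had an unadjusted p under 0.05 there (10% of all features). Averaged over 2 to 20 min 3 of 25 rose in DeltaPDR1 (2.80% of all features) and 5 in WT (2.61%). All 4 differences DeltaYAP1 minus WT missed the threshold in that fit, with adjusted p from 0.145 for FRM2 to 0.415 for YPR1 (limma): 0 of 25 were negative and past it (0.139% of all features), and 6 had an unadjusted p under 0.05 (8.63%). Without the WT array at 20 min 2 of the 25 rose in WT. The 4 calls for DeltaYAP1 minus WT became 2 without the WT array at 2, 4 or 20 min and 1 without the DeltaYAP1 array at 20 min.

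Among the other medium-chain reductases 2 of 14 tested rose in WT at 10 and 20 min and 0 fell, while 4.49% of all features rose and 4.58% fell. SFA1, which oxidises the glutathione adduct of formaldehyde, was highest in WT: it averaged 0.998 ± 0.15 in DeltaPDR1 (adjusted p = 0.00279, limma) and 2.11 ± 0.23 in WT (adjusted p = 0.000297, limma). SFA1 had no value on the WT array at 10 min, so its WT mean rests on the one at 20 min and the fitted time term. The sorbitol dehydrogenase SOR2 rose as well, with 1.19 ± 0.16 in DeltaPDR1 and 0.71 ± 0.16 in WT. Its relative SOR1 did not pass in either, with -0.21 ± 0.13 in DeltaPDR1 and 0.27 ± 0.21 in WT. SOR1 also had no value on the WT array at 10 min. Why the probes of SOR1 and SOR2 differ was not tested. The lowest was YIM1 with -0.14 in WT, and the alcohol dehydrogenases ADH1 (0.07), ADH2 (0.18) and ADH3 (0.13) did not pass in WT. SFA1 was the 1 gene of this family with a called difference DeltaYAP1 minus WT, -1.81 ± 0.27 (adjusted p = 0.00754, limma).

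Of the 3 relatives of GRE2 among the short-chain reductases 0 passed the test in WT, while 4.49% of all features rose and 4.58% fell. ARI1 averaged 0.44 ± 0.14 in WT (adjusted p = 0.0679, limma), YDR541C -0.04 ± 0.12 and YGL039W -0.42 ± 0.14 (adjusted p = 0.0794, limma), and none of the 3 passed in DeltaPDR1 or for DeltaYAP1 minus WT. Unadjusted p-values under 0.05 numbered 1 of 3 in DeltaPDR1 (20% of all features), 2 of 3 in WT (25.6%) and 0 of 3 for DeltaYAP1 minus WT (10%). The list of aldo-keto reductases, which reduce carbonyls with NADPH and have another fold, left out the AAD family, to which AAD14 belongs. Of those listed 2 of 4 tested rose in WT (4.49% of all features). These were YPR1 by 0.62 ± 0.10 and GRE3 by 0.56 ± 0.13. In DeltaPDR1 0 of 4 passed, while 2.08% of all features rose and 1.62% fell. There 2 of the 4 had an unadjusted p under 0.05 (20% of all features). ARA1 was lowest of the 4 tested in WT with 0.14. YDL124W had no value in DeltaPDR1 and was not tested. It stood at 0.54 at 10 min and 1.53 at 20 min in WT. YPR1 differed by -0.68 ± 0.14 between DeltaYAP1 and WT (adjusted p = 0.0411, limma).

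Of the flavodoxin-like and nitroreductase-like enzymes, different kinds of protein listed together, 3 of 4 tested rose in both DeltaPDR1 and WT at 10 and 20 min. Of all features 2.08% rose in DeltaPDR1 and 4.49% in WT. FRM2, the only nitroreductase-like gene tested, averaged 4.97 ± 0.37 in DeltaPDR1 and 6.15 ± 0.37 in WT (SE). YCP4 averaged 1.14 ± 0.18 in DeltaPDR1 and 1.91 ± 0.18 in WT, and PST2 1.45 ± 0.19 in DeltaPDR1 and 1.79 ± 0.30 in WT (SE). PST2, like SFA1, had no value on the WT array at 10 min. RFS1 stood at -0.09 in DeltaPDR1 and -0.03 in WT. The differences DeltaYAP1 minus WT were called for FRM2 (-6.36 ± 0.53, adjusted p = 6.37e-05, limma) and YCP4 (-1.80 ± 0.25, adjusted p = 0.00274, limma), and PST2 missed the threshold with -1.59 ± 0.36 (adjusted p = 0.0723, limma).

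The neighbouring genes on the chromosome, read from the order of protein-coding genes in the RefSeq annotation, were looked up for each member. Of 16 neighbours 10 had values at both 10 and 20 min in WT, and their means ran from -0.36 for DCP1 beside GRE2 to 2.19 for ERO1 beside YML131W. ERO1, which encodes the oxidase that drives disulfide formation in the endoplasmic reticulum, was the 1 neighbour with a mean of at least 1. YCR101C beside YCR102C followed with 0.72, from -0.28 at 10 min and 1.73 at 20 min, and PAU3 on its other side stood at -0.16. STB5, which lies beside OYE2 and encodes a regulator of NADPH-producing genes, stood at -0.69 at 10 min and 0.67 at 20 min.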

How the data were processed

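The table deposited by the authors holds 1 column of log ratios per array, taken as log2 here; the log base, dyes, background correction, spot filter and normalisation are not given in the sources used here. Array means lay between -0.0012 and 0.00047, which points to centring before deposit. The largest value was 6.75. Of 6338 probes 5628 carried 1 gene symbol, none several, and 710 none. Symbols were updated through RefSeq, and probes of a gene were averaged to 6321 features. No sequence or coordinate is printed, and the promoter motif search listed in the design was not run, because no table of sequences was used here.

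Features with at least 3 of 4 values per strain (2, 4, 10 and 20 min) were fitted with limma 3.58.1 in R 4.3.3 (lmFit, eBayes; two-sided; calls at adjusted p under 0.05), once with strain and time and once with strain-by-phase terms (4 residual degrees of freedom, prior 6.80). The models were tested on simulated data before use, with 200 of 4324 features changed in WT and DeltaPDR1. For a response that grew with time to a mean of 0.5, 1 or 2, the 2 to 20 min model called 8.5%, 54% and 0%. The 10 and 20 min model called 80%, 95.5% and 100%. In this simulation all changed features shared the same curve, and the 2 to 20 min model then missed large growing responses. In the data the same model called the 6 members tested, so the simulated rates need not hold for these arrays. Alternatives covered centring, scaling, missing values, the time block, shrinkage, the baseline, a probe-order trend (lowess, span 0.1) and each array left out. Times stand in for repeats here, so p-values do not measure the spread between cultures.

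The 8 members, the lists of related reductases and the models were chosen with earlier results of these data known. Genes named beside the members are those called, the highest and lowest of each list in WT, and the 5 most alike, with some others given for comparison.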

Additional observations from a re-analysis of the deposited data

Results flagged for a closer look

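YLR460C was singled out because its ratio lay below 0 on every DeltaYAP1 array from 2 to 20 min and above 0 on every array of the other strains at these times. The mean difference over these 4 times was -2.70 for DeltaYAP1 minus WT and 2.25 for DeltaPDR1 minus DeltaYAP1. The difference was not tested, since the DeltaYAP1 and WT values served to choose the gene, and the DeltaYAP1 values, -0.31 at the lowest, are no further from 0 than member values at 30 s.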

How the results depend on the processing

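All 6 tested members were called at 10 and 20 min in DeltaPDR1 under each of the 21 alternatives run, array medians subtracted, scaled arrays and the leaving out of each array in turn among them, with adjusted p up to 0.00979. Over 2 to 20 min the count of 6 was 3 with the DeltaPDR1 arrays alone, 4 without the time block or with robust shrinkage, and 4 to 6 when 1 array was left out; no estimate changed sign. Without the time block YCR102C (adjusted p = 0.0622) and YLR460C (adjusted p = 0.0572) were lost, and with robust shrinkage the same genes (adjusted p = 0.0653 and 0.0704, limma). The cause was not tested. For the related reductases the number up in WT ran from 2 to 9 and the number down from 0 to 1 when 1 array was left out, and 1 was down with the 30 s arrays subtracted. Their called negative differences DeltaYAP1 minus WT ran from 1 to 5 when 1 array was left out and were 2 with scaled arrays. Over all features, calls in DeltaPDR1 numbered from 44 to 275 up and 19 to 334 down at 10 and 20 min across alternatives, against 90 and 70, and from 16 to 382 up and 21 to 481 down over 2 to 20 min, against 121 and 117; the number of features tested differed between alternatives. The split into up and down at 10 and 20 min became 80 and 32 with scaled arrays. There were no repeated arrays to pair, and the strains were matched by time as a block. With 1 array per strain and time, single values have no error of their own.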

Other observations

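ADH6, an NADPH-dependent alcohol dehydrogenase of the medium-chain family, was noticed after its values were seen. It lacked values on the same 8 arrays as YNL134C and could not be tested. It stood at -0.06 in DeltaYAP1 at 20 min, at 0.16, 0.60, 0.999, 1.69 and 2.45 in DeltaPDR1 from 30 s to 20 min, and at 0.84 at 20 min and 1.60 at 40 min in WT. Like OYE3, it was higher in DeltaPDR1 than in WT at 20 min. Its close relative ADH7, which lies close to YCR102C, stood at 0.38 in DeltaPDR1 and 0.08 in WT at 20 min.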
